A study of Mus musculus with 6 samples.

Results

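The mitochondrial respiratory chain subunits were taken as every gene named alone by a probe set whose symbol begins Ndufa, Ndufb, Ndufc, Ndufs or Ndufv followed by a number, Uqcr, Cox4 to Cox8, Sdha to Sdhd, or Atp5. The pattern found 81 of the 18194 genes on the array: 33 of complex I, 4 of complex II, 8 of complex III, 19 of complex IV and 17 of complex V. Each gene was read from its brightest probe set (a group of short oligonucleotides against 1 transcript), and 75 of the 81 were bright enough to be tested. The RNA came from the rostral forebrain of mouse embryos, the forebrain tissue lying ahead of where the lateral ventricles end caudally. Wild-type embryos were compared with embryos lacking both Fezf1 and Fezf2 (Fezf1-/- Fezf2-/-), 2 zinc-finger transcription factor genes of the early forebrain, at embryonic days E9.5, E10.5 and, last, E12.5. Each of the 6 groups was 1 array, and the labels do not give the number of embryos, their sex or the strain, so p-values measure only the spread between these 6 arrays, which may be technical.

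The respiratory chain passes electrons from NADH through complex I (NADH dehydrogenase), or from succinate through complex II, to ubiquinone, then through complex III and cytochrome c to complex IV (cytochrome c oxidase), which reduces oxygen. Complexes I, III and IV pump protons across the inner mitochondrial membrane, and complex V (ATP synthase) uses that gradient to make ATP. Except for complex II, each complex combines subunits of the mitochondrial genome with the nuclear-encoded subunits measured here, and several complex IV subunits have a widespread isoform and a second one known from muscle, testis or lung.

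The deposited values were not on a common scale. Array medians were lowest for the wild-type E10.5 array, 14.2, and highest for the knockout E12.5 array, 37.1, so arrays were quantile-normalized, and levels below are that normalized signal. In order of age, the Fezf2 signal was 78.9, 146 and 249 in the wild type and 0.458, 0.904 and 1.66 in the knockout. The Fezf1 signal was 251, 143 and 174 in the wild type and 97.7, 78.4 and 49.5 in the knockout, and where either probe set lies relative to its deletion is not given in the sources used here. Of 7 forebrain markers measured, Six3, Lhx2, Emx2, Pax6, Otx2 and Sox2 were above the median of all values, 24.0, on all 6 arrays, with Six3 at 133 to 211. The early eye and forebrain gene Rax was at 60.1 in the wild type and 18.9 in the knockout at E9.5 and at 2.60 and 2.63 at E12.5. Xist, transcribed from the inactive X chromosome of female cells, had the widest negative genotype difference of any tested gene at E10.5, at -4.99 on the log2 scale. Of the members known to be X-linked, Ndufa1 and Ndufb11 differed there by -0.12 and -0.08.

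The members were among the brighter genes of this tissue. By mean signal 69 of the 81 lay in the top 10% of all genes and 48 in the top 5%. Together their probe sets held 1.56% to 1.69% of an array's summed deposited signal. The 6 members too dim to test were Cox4i2, Cox7a1, Cox7b2, Cox8b, Ndufa4l2 and Ndufb4.

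Loss of Fezf1 and Fezf2 gave no member a genotype difference that passed the test. With age as a block, 0 of the 75 tested members passed an adjusted p of 0.05 in limma's moderated test, where 0.0721% of the 11091 tested genes did (0.0180% higher and 0.0541% lower in the knockout). Over all genes these were 8 calls, which became 54 without the wild-type and 56 without the knockout array at E9.5, and 0 without the wild-type array at E12.5 or without the age block, while 0 members were called in each. At an unadjusted p under 0.05 there were 2 members, Atp5a1 and Atp5md, and 511 genes in all. The fitted knockout minus wild-type differences of members ran from -0.30 for Atp5md to 0.23 for Cox8c on the log2 scale, with a median standard error of 0.07. By complex, the median difference was -0.03 for complex I, 0.05 for complex II, -0.01 for complex III, 0.01 for complex IV and 0.00 for complex V.

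Atp5md, a small membrane subunit of ATP synthase, had a signal of 1151, 1341 and 2087 in the wild type, from the youngest age to the oldest, against 843, 1263 and 1623 in the knockout. The knockout was lower at all 3 ages, by 0.45, 0.09 and 0.36 in size on the log2 scale, with a fitted difference of -0.30 ± 0.08 (SE, limma adjusted p = 0.887). Atp5a1, the alpha subunit of the catalytic head, had 2258, 3331 and 3074 in the wild type and 2397, 3488 and 3573 in the knockout. Its knockout signal was the higher at each of the 3 ages, with a fitted difference of 0.12 ± 0.05 (adjusted p = 0.999). In both genes the genotypes overlapped once the ages were pooled.

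At single ages there was 1 array a group, so the following differences have no replicate check and no test. In order of age, the median member differed between genotypes by 0.04, -0.06 and -0.04, and the median of all tested genes by 0.01, -0.01 and 0.02. In the same order, 49, 24 and 26 of the 75 members were higher in the knockout, and 5859, 5297 and 5953 of all 11091 tested genes. Of 855 tested genes whose mean level lay in the members' middle range, 477, 427 and 466 were higher. Members lower in the knockout numbered 50 at E10.5 and 49 at E12.5, but they were not all the same members at the 2 ages. At E10.5 the median genotype difference was -0.74 for young-neuron markers (0 of 12 higher) and -0.35 for neural progenitor markers (0 of 8 higher). For forebrain markers it was -0.40 (1 of 6 tested higher, with Lhx2 at -1.06 and Emx2 at -1.08). The medians of these 3 lists, in the same order, were 0.21, 0.07 and -0.19 at E9.5, and -0.01, 0.06 and -0.08 at E12.5. The part of these markers in the members' values was not tested. The median size of a member's difference was 0.07, 0.09 and 0.08 at the 3 ages, against 0.14, 0.16 and 0.13 over all tested genes. In those 855 genes of the members' middle range, this median size was 0.07, 0.10 and 0.08. In size, whatever their direction, the members' differences were thus as small as those of other genes of their brightness.

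**Figure D1:**
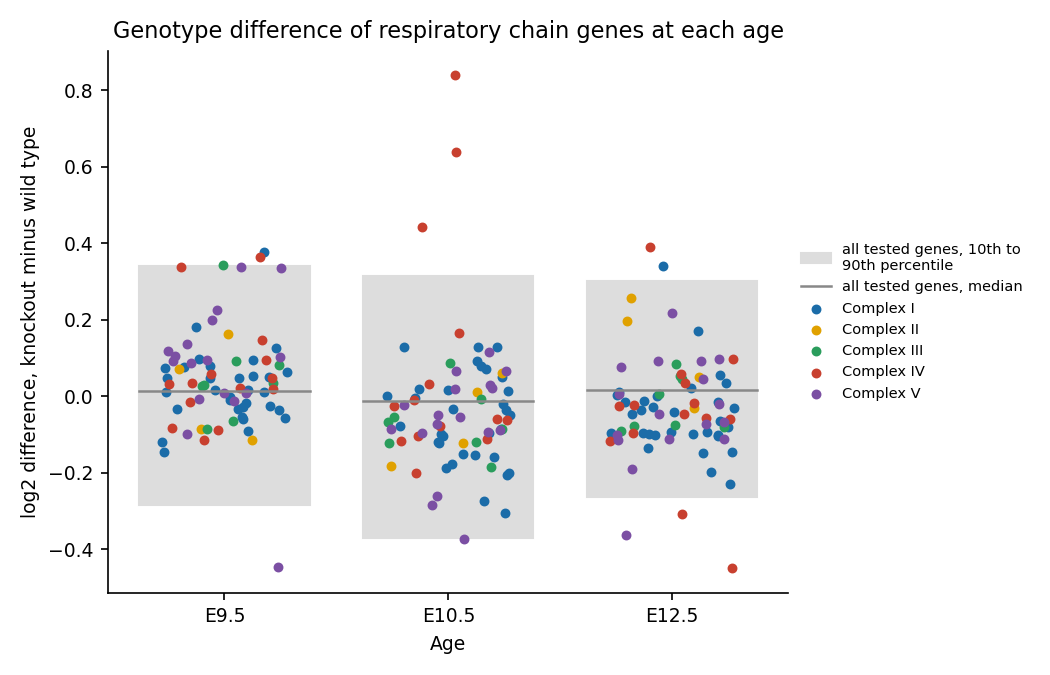
Each point is 1 tested respiratory chain gene, coloured by complex, with the log2 difference of normalized signal, knockout minus wild type, on the vertical axis and the age on the horizontal axis; the grey box spans the 10th to 90th percentile of all tested genes and the line is their median. Of the members, 89.3%, 85.3% and 89.3% sit within 0.2 of 0 at the 3 ages, and Cox8c is the highest point at E10.5, at 0.84.

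One member passed 2-fold between genotypes at a single age with its higher value above 24.0. Ndufa4l2, a paralogue of the complex IV subunit Ndufa4 that is known as a target of the hypoxia-inducible factor, was at 41.9 in the wild type and 6.20 in the knockout at E9.5, and at 27.0 and 7.48 at E10.5. At E12.5 the order was the other way, 18.8 in the wild type and 33.6 in the knockout. The log2 differences were -1.93, -1.26 and 0.66. Of all 18194 genes, 0.742% passed 2-fold lower in the knockout at E9.5 and 0.874% higher. At E10.5 the shares were 1.10% and 0.813%, and at E12.5 they were 0.236% and 0.319%. Ndufa4l2 was dim throughout, and with a pseudocount of 32 in place of 6.50 it passed 2-fold at neither age. Over 13 tested genes of a hypoxia response list, the median genotype difference was -0.13, 0.17 and 0.00 at the 3 ages, and over 10 tested markers of head mesenchyme and neural crest 0.31, 0.01 and -0.36. Their part in the Ndufa4l2 values was not tested.

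With age, the members moved in both directions. From E9.5 to E12.5, 33 of the 75 tested members rose, 18 fell and 24 did not pass (limma adjusted p under 0.05, genotype in the model, 2 arrays an age). Over all tested genes 25.9% rose and 36.9% fell, 62.8% in all. The median member difference was 0.12 and the median of all tested genes -0.14 on the log2 scale. Complex III had 6 members that rose and 2 that fell of 8, with a median of 0.69. Complex V had 10 and 2 of 17, with a median of 0.30, complex I 11 and 11 of 32 tested, with a median of -0.02, and complex IV 4 and 3 of 14 tested, with a median of -0.05. In complex II 2 of 4 rose and the others did not pass, with a median of 0.34.

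The split between rises and falls depended on the scaling between arrays. With the values as deposited, 40 members rose and 10 fell, with a member median of 0.35 beside 0.40 over all tested genes. With each array scaled to a common 2% trimmed mean, 25 rose and 32 fell, with a member median of -0.08 beside -0.02. From E9.5 to E12.5 the members' median thus lay above that over all genes under quantile scaling only. It lay below it as deposited and by trimmed mean. Rises were 64.7%, 80.0% and 43.9% of member calls under quantile, no and trimmed-mean scaling, and 41.2%, 76.6% and 48.9% of calls over all genes. Under all 3 scalings 25 members rose and 10 fell. The choice of probe set also mattered: of the 51 members called, 28 had a second probe set above the filter, and it moved the same way in 17 and the other way in 11.

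Taken separately, the genotypes gave the same direction for most members. Wild type and knockout share no arrays, and the difference between E9.5 and E12.5 had 1 sign in both for 71 of the 75 tested members, where over all tested genes 88.2% had. Across the 75 genes, which are not independent replicates and share their arrays, the correlation of the wild-type change with the knockout change was 0.961, against 0.925 over all tested genes. The median gap between the genotypes was 0.12 and the widest was 0.46, for Ndufb1. Ndufa4, Cox8a and Uqcrq rose past 2-fold in both genotypes, and none of the 75 fell past 2-fold in both.

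**Figure D2:**
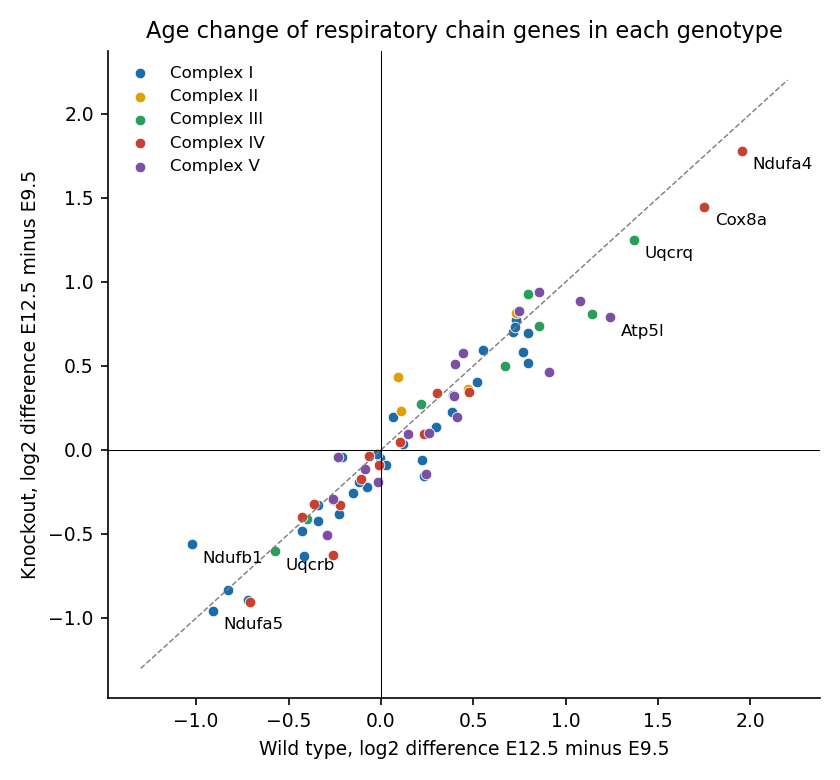
Each point is 1 tested respiratory chain gene, coloured by complex, with its log2 difference E12.5 minus E9.5 in the wild type on the horizontal axis and in the knockout on the vertical axis; the dashed line marks equal change. The points follow the line, with Ndufa4, Cox8a and Uqcrq at the upper end and Ndufa5 at the lower end.

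In complex I, the 6 core subunits tested, which belong to the arm that takes electrons from NADH to ubiquinone, included both rises and falls. Ndufs3, a core subunit of the peripheral arm, was at 725 and 751 at E9.5 (wild type, then knockout), 998 and 933 at E10.5 and 1204 and 1252 at E12.5, a change of 0.73 ± 0.08 (SE, adjusted p = 6.04e-05). Ndufs7, which holds the last iron-sulfur cluster before ubiquinone, was at 1197 and 1151, then 941 and 989, then 723 and 616. Its brightest probe set fell by 0.81 on the log2 scale (SE 0.09, adjusted p = 6.43e-05), while its second probe set differed by 0.64 in the other direction. Ndufs1, the largest core subunit, fell by 0.34 (adjusted p = 0.0107), a call that was lost with the values as deposited. Of these 6, 2 rose, 2 fell and 2 did not pass.

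The accessory subunits of complex I, which surround the core and stabilise it, split evenly: of 26 tested, 9 rose and 9 fell. Ndufa3 rose at each step, from 1239 and 1355 to 1702 and 1798 and then 2060 and 2321, by 0.75 ± 0.07 in all (adjusted p = 1.80e-05). Ndufa7 (0.74 ± 0.08) and Ndufa9 (0.71 ± 0.09) rose by similar amounts, and the second probe sets of Ndufa3 and Ndufa7 differed by 0.68 and 0.47. Ndufa9 had reached 976 and 1068 by E10.5 and stood at 989 and 990 at E12.5.

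Ndufa5, an accessory subunit of the peripheral arm, had the widest fall of any tested member. Its signal was 1408 and 1376 at E9.5, 979 and 990 at E10.5 and 747 and 706 at E12.5, so that no array of a later age reached one of an earlier age. The fall was 1.91-fold (-0.93 ± 0.08, adjusted p = 1.06e-05), and its second probe set differed by -0.14. Ndufb6, of the membrane arm, fell by 0.83 on the log2 scale, from 2453 and 2436 to 1379 and 1364 (adjusted p = 8.14e-06), but its second probe set differed by 0.28 in the other direction. Ndufb1 (-0.79 ± 0.18), Ndufb3 (-0.53 ± 0.09), Ndufb8 (-0.45 ± 0.08), Ndufc2 (-0.38 ± 0.06), Ndufb11 (-0.31 ± 0.07) and Ndufa12 (-0.28 ± 0.07) also fell. Of these, Ndufb1, Ndufb3, Ndufb11 and Ndufa12 did not pass in the same direction under all 3 scalings. Ndufb1 was read by 1 dim probe set, at 140 and 128 at E9.5 and 65.7 and 85.0 at E12.5. Without the wild-type array at E12.5, Ndufb1 had a difference of -0.55 and did not pass (adjusted p = 0.0661), and without the knockout array at E12.5 Ndufb11 had -0.25 and did not pass (adjusted p = 0.0657). The second probe set of Ndufc2 differed by 0.08. With the mean of all its probe sets, Ndufb11 differed by 0.28 in the other direction and Ndufa12 by 0.15.

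Complex II oxidises succinate and is also an enzyme of the TCA cycle. Sdhb, its iron-sulfur subunit, rose from 1121 and 1035 at E9.5 to 1542 and 1359 at E10.5 and 1865 and 1826 at E12.5, a 1.71-fold change (0.77 ± 0.08, adjusted p = 2.33e-05). Sdhc, a membrane anchor, rose by 0.42 ± 0.10 (adjusted p = 0.00489), though its second probe set differed by -0.35. The flavoprotein Sdha (0.17) and the other anchor, Sdhd (0.26), did not pass from E9.5 to E12.5. Both passed from E9.5 to E10.5, each with a difference of 0.38. The second probe set of Sdhd went the other way, by -0.39 from E9.5 to E10.5 and -1.12 from E9.5 to E12.5. That of Sdha differed by 0.36 and -0.34 over the same spans.

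All 8 members of complex III passed the test under quantile scaling, where 62.8% of all tested genes did. Uqcrfs1 and Uqcrc2 did not pass in the same direction under all 3 scalings. Uqcrq, a small subunit near cytochrome b, was at 528 and 538 at E9.5, 754 and 663 at E10.5 and 1376 and 1291 at E12.5. It rose 2.48-fold (1.31 ± 0.09, adjusted p = 3.14e-06), most of it in the second step, and the arrays of the 3 ages did not overlap. Its other probe sets were too dim to test, and averaged over all of them the difference was 0.42 (adjusted p = 0.101). The other small subunits Uqcr10 (0.98 ± 0.12), Uqcr11 (0.80 ± 0.09) and the hinge protein Uqcrh (0.59 ± 0.07) rose, as did the core protein Uqcrc1 (0.86 ± 0.08) and the Rieske iron-sulfur protein Uqcrfs1 (0.25 ± 0.08). For Uqcr10 the mean over all probe sets gave 0.13 (adjusted p = 0.385).

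Uqcrb, a subunit that sits close to the ubiquinone site, went the other way within the same complex. Its signal was 6473 and 6853 at E9.5, 5522 and 5275 at E10.5 and 4353 and 4517 at E12.5, with no overlap between ages. It fell by 0.59 on the log2 scale (SE 0.06, adjusted p = 2.83e-05), and its second probe set differed by -0.81. The second core protein, Uqcrc2, fell by 0.41 (adjusted p = 0.00109) on its brightest probe set, but differed by 0.60 in the other direction on its second and by 0.09 on their mean.

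Complex IV held the 2 widest rises among the tested members. Ndufa4, first counted with complex I and now known as a complex IV subunit, was at 475 and 527 at E9.5, 1105 and 1023 at E10.5 and 1860 and 1827 at E12.5. It rose 3.65-fold (1.87 ± 0.09, adjusted p = 5.95e-07) and passed in both steps under all 3 scalings, on its only probe set. Cox8a, the widespread isoform of the smallest subunit, went from 247 and 314 to 739 and 830 and then to 846 and 867, a 3.03-fold rise (1.60 ± 0.10, adjusted p = 2.30e-06). It passed from E9.5 to E10.5 (1.47) and not from E10.5 to E12.5 (0.13). Its second probe set differed by 1.41.

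On their brightest probe sets, the other tested subunits of complex IV changed less. Cox4i1 (0.32 ± 0.06) and Cox6c (0.41 ± 0.06) rose, and Cox5a (-0.34 ± 0.06) and Cox5b (-0.28 ± 0.06) fell. The second probe sets of Cox5a and Cox5b differed by -0.40 and -0.19. Their dimmer probe sets above the filter went the other way, by 0.25 for Cox5a and by 0.21, 0.54 and 0.17 for Cox5b. Cox4i1 differed by -0.08 under the trimmed-mean scaling, and the second probe set of Cox6c by -0.17 under quantile scaling. Cox4i1 and Cox6c, and Cox7c below, did not pass in the same direction under all 3 scalings. Cox6a1 (-0.05), Cox6b1 (0.16), Cox7a2 (-0.14) and Cox7a2l (0.08), a protein of respiratory supercomplexes, did not pass. Under the trimmed-mean scaling Cox6b1 differed by -0.26 and Cox7a2l by -0.12. The second probe set of Cox7a2l differed by 1.30, from 384 and 403 at E9.5 to 1000 and 957 at E12.5. Its remaining probe set differed by 0.21. Averaged over its probe sets, Cox6a1 differed by 0.30. Cox7c was read by a dim probe set, at 183 and 168 at E9.5, 107 and 148 at E10.5 and 109 and 86.9 at E12.5. It fell by 0.81 on the log2 scale (SE 0.19, adjusted p = 0.00465), and differed by -0.57 with an adjusted p of 0.0855 without the knockout array at E12.5.

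**Figure D3:**
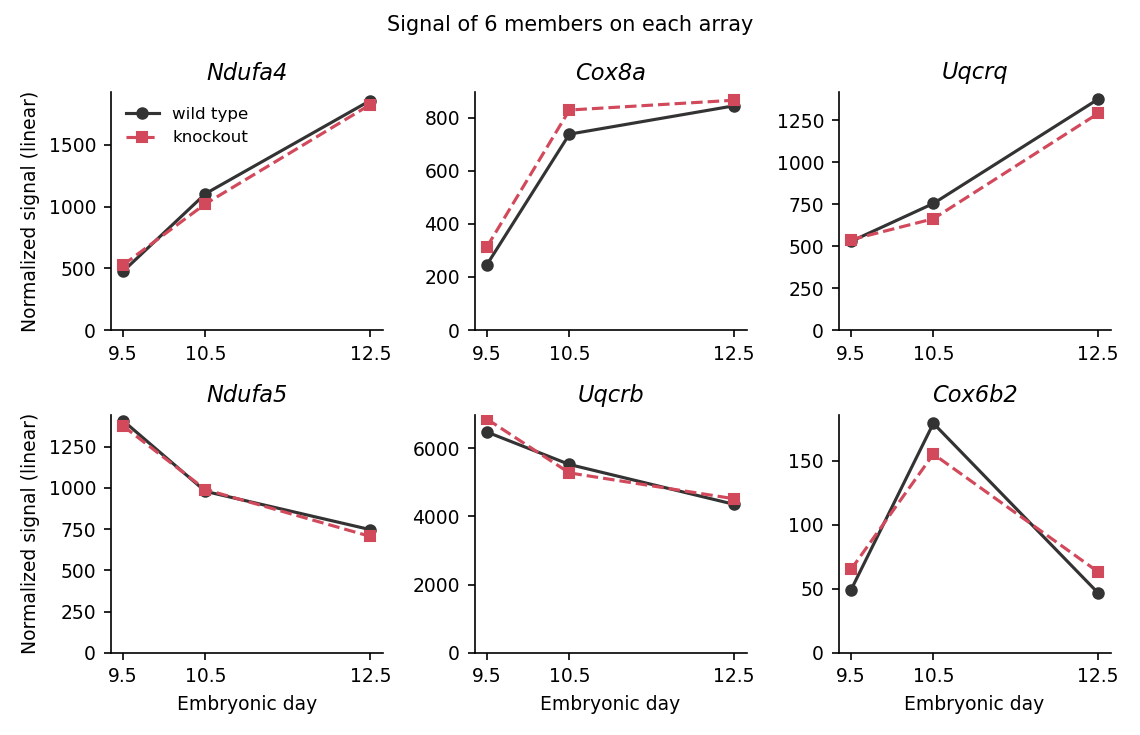
Normalized signal (linear axis from 0, scaled separately in each panel) of 6 members against embryonic day, with the wild type as filled circles and the knockout as squares, 1 array a point. Ndufa4, Cox8a and Uqcrq rise, Ndufa5 and Uqcrb fall, and Cox6b2 is high at E10.5 only, in both genotypes.

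Of 8 isoforms known from other tissues, 3 were bright enough to test: from E9.5 to E10.5 Cox6b2 rose, Cox8c fell and Cox6a2 did not pass, and from E9.5 to E12.5 none of the 3 passed. Cox6b2, the testis isoform of Cox6b1, was at 49.0 and 65.0 at E9.5, 179 and 155 at E10.5 and 46.6 and 63.1 at E12.5. Both arrays at E10.5 were above all the others. It rose by 1.46 ± 0.20 from E9.5 to E10.5 (adjusted p = 0.00135) and then fell by 1.51 (SE 0.20, adjusted p = 2.53e-04), and was called both ways under all 3 scalings, on 1 probe set. Under quantile scaling it was the only tested member that rose in the first step and fell in the second. From E9.5 to E12.5 it differed by -0.05, and by 0.70 with the values as deposited.

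Cox8c, also known from testis, was at 84.1 and 78.7 at E9.5, 26.4 and 52.3 at E10.5 and 61.0 and 58.3 at E12.5. It fell by 1.0 on the log2 scale to E10.5 (SE 0.26, adjusted p = 0.0198), with the wild-type array at E10.5 the lowest of the 6. The heart and muscle isoforms were dim: Cox6a2 ran from 15.7 to 29.7, Cox7a1 from 9.43 to 20.1 and Cox8b from 0.921 to 9.02. The lung isoform Cox4i2 ran from 10.4 to 19.0 and the testis isoform Cox7b2 from 0.362 to 6.43. Of 13 markers of striated muscle and heart, 1 was bright enough to test, and 6 were under the median of all values on all 6 arrays.

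**Figure D4:**
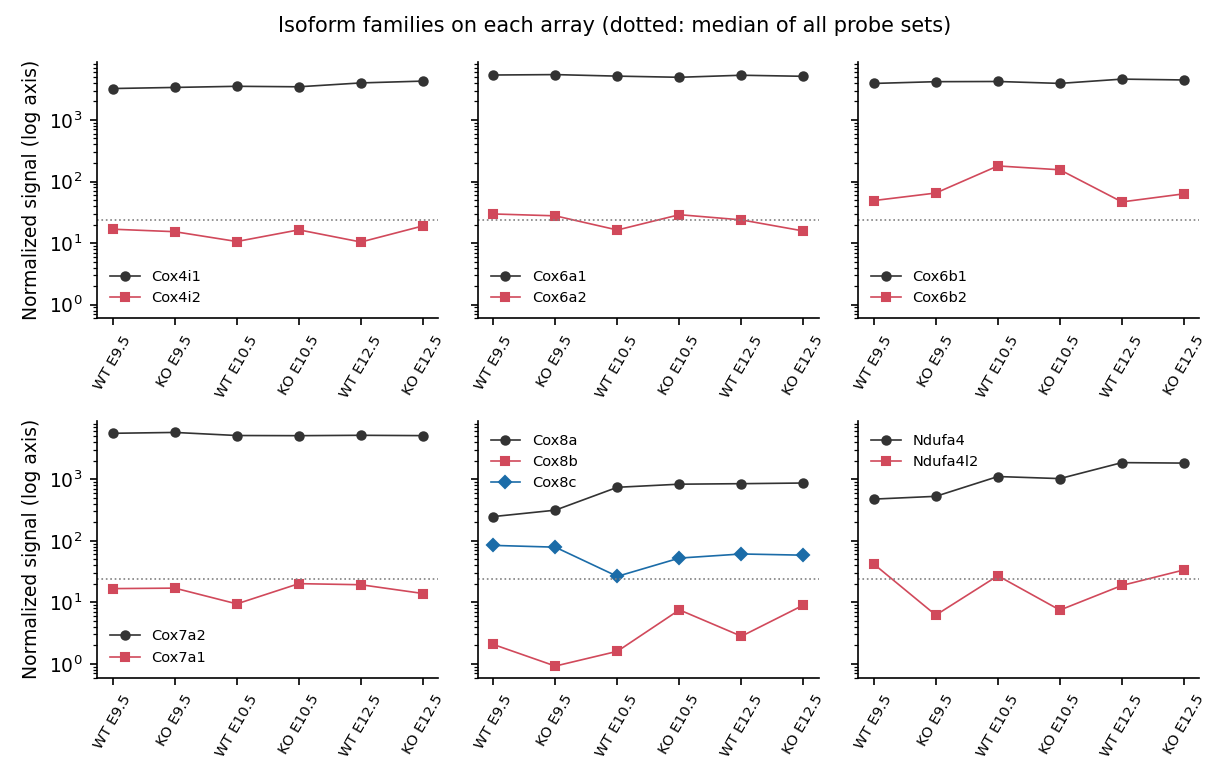
Normalized signal on a log axis of the complex IV isoform families on each of the 6 arrays (WT, wild type; KO, knockout); the dotted line is the median of all values, 24.0. Levels of different genes come from different probe sets and are not compared; the panels show which isoforms stay near or under the median and that Cox6b2 peaks on both E10.5 arrays.

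In complex V, the catalytic head that makes ATP had 3 members of 5 that rose and 2 that did not pass. Atp5e, the epsilon subunit, rose from 772 and 823 at E9.5 to 1623 and 1251 at E10.5 and 1637 and 1525 at E12.5 (0.98 ± 0.11, adjusted p = 4.17e-05). Atp5a1 rose by 0.51 ± 0.07 and Atp5b, the beta subunit, by 0.36 ± 0.07. Atp5b did not pass in the same direction under all 3 scalings. The second probe set of Atp5a1 differed by -0.07. Among the subunits of the membrane part and stalk, Atp5l, subunit g, rose 2.02-fold (1.01 ± 0.11, adjusted p = 3.83e-05), from 908 and 1149 to 1697 and 1596 and then 2153 and 1991, and Atp5md rose by 0.90 ± 0.10. Atp5j, the coupling factor of the stalk, fell from 2905 and 3119 to 2334 and 2369 and then 2369 and 2193 (-0.40 ± 0.07, adjusted p = 0.00103).

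Atp5g1, Atp5g2 and Atp5g3 encode the same mature c subunit of the proton-driven ring and differ in their import sequences. Atp5g2 was at 1123 and 1118 at E9.5, 2149 and 1763 at E10.5 and 1886 and 1989 at E12.5, a rise of 0.79 ± 0.09. Atp5g1 rose by 0.46 ± 0.09, from 587 and 582 to 779 and 831. Atp5g3 did not pass, at 4493 and 4517 at E9.5 and 4974 and 4820 at E12.5 (0.12 ± 0.06, adjusted p = 0.0899), and differed by -0.32 under the trimmed-mean scaling. With the mean of all probe sets Atp5g2 (0.22) and Atp5g1 (0.25) did not pass.

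Under quantile scaling the first day held more of the calls than the next 2 days. From E9.5 to E10.5, 29 members rose and 12 fell, where 13.8% of all tested genes rose and 15.1% fell, 29.0% in all. From E10.5 to E12.5, 15 rose and 9 fell, where 20.2% and 29.9% did, 50.2% in all. Of the 75 tested members 10 rose in both steps (Atp5l, Atp5md, Ndufa3, Ndufa4, Ndufa7, Ndufb2, Ndufs3, Sdhb, Uqcrc1 and Uqcrq) and 4 fell in both (Ndufa5, Ndufb3, Ndufb6 and Uqcrb). Another 18 rose in the first step alone, and 25 passed in neither. The steps share the E10.5 arrays and rest on the scaling: as deposited, 7 rose and 41 fell in the first and 70 rose and 1 fell in the second, and by trimmed mean 29 rose and 13 fell, then 3 rose and 37 fell. Of 11071 genes tested as deposited, 532 rose and 5344 fell in the first step and 8469 rose and 411 fell in the second. Of 11076 by trimmed mean, 1680 rose and 1688 fell, then 2608 rose and 2919 fell. Member calls fell to 27 in the first step without the wild-type array at E10.5, and in the second to 15 without the wild-type and 11 without the knockout array at E12.5, and without a trend in the variance model to 14 and 10.

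Other genes of oxidative metabolism gave the following counts from E9.5 to E12.5. Of 42 tested assembly factors, which build the complexes without staying in them, 6 rose and 21 fell, with a median of -0.37. Cytochrome c (Cycs), the carrier between complexes III and IV, fell by 0.81 on the log2 scale (adjusted p = 3.36e-06), from 6184 and 6225 to 3506 and 3568. In the TCA cycle 1 of 15 tested genes rose and 8 fell, with a median of -0.25, and Suclg2, a subunit of succinyl-CoA ligase, fell by 1.12. Of 13 regulators of mitochondrial biogenesis 1 rose and 7 fell, with a median of -0.31, and the coactivator Pprc1 fell by 1.25.

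Of 18 tested glycolysis genes, 4 rose and 10 fell, with a median of -0.66. On the log2 scale, the glucose transporters Slc2a3 and Slc2a1 changed by -3.63 and -2.16 and the lactate exporter Slc16a3 by -1.85. Of 13 hypoxia response genes 8 fell and the others did not pass, with a median of -0.81, and Pdk1, the kinase that holds back pyruvate entry into the TCA cycle, fell by 2.74. With the values as deposited, 19 assembly factors rose and 7 fell, 5 TCA cycle genes rose and 3 fell, 6 biogenesis regulators rose and 3 fell, and 4 hypoxia response genes rose and 5 fell. Over all 11071 genes tested that way, 5448 rose and 1663 fell. By trimmed mean, 8 assembly factors rose and 19 fell, 1 TCA cycle gene rose and 9 fell, and 2 biogenesis regulators rose and 7 fell. Of the hypoxia response genes, 0 rose and 6 fell, and over all genes 3315 rose and 3461 fell. The median of each of these lists lay below that of all tested genes under all 3 scalings. For glycolysis and the hypoxia response, falls outnumbered rises under each of the 3 scalings. The counts under quantile scaling stand beside the 25.9% and 36.9% of all tested genes, and no list was tested against another.

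**Figure D5:**
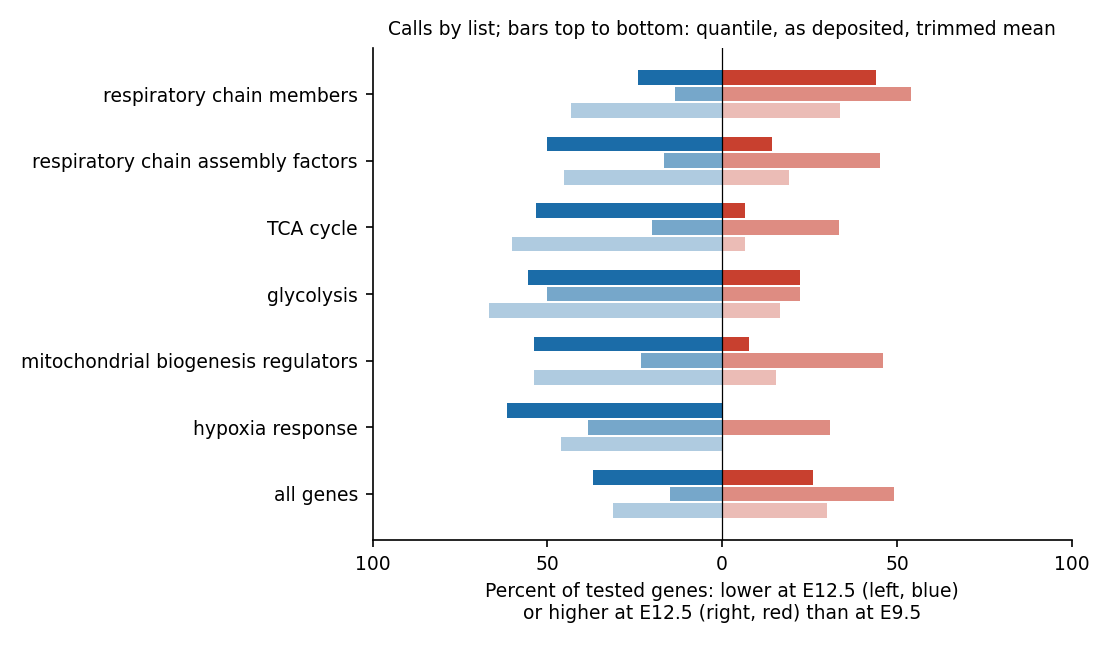
Bars give the percent of each list's tested genes that were lower at E12.5 than at E9.5 (left, blue) or higher (right, red) by limma's test; the 3 bars of a list are, from the top, quantile scaling, values as deposited and trimmed-mean scaling. Respiratory chain members have more lower than higher calls by trimmed mean only. Assembly factors, TCA cycle genes, biogenesis regulators and all genes have more higher than lower calls as deposited only. Glycolysis and the hypoxia response keep more lower than higher calls under all 3.

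Cell type markers moved over the same ages. In bulk RNA, fewer cells of a type and less RNA per cell cannot be told apart. All 12 young-neuron markers rose from E9.5 to E12.5, with a median of 4.58 on the log2 scale, and their summed signal went from 800 and 962 to 19432 and 19500. Of 8 neural progenitor markers 6 rose and 1 fell. Summed erythroid markers went from 23700 and 24112 to 14022 and 17513, and 6 of 7 tested fell. Surface ectoderm markers went from 1426 and 1684 to 153 and 150, with 7 of 8 tested lower, and head mesenchyme markers from 3637 and 4664 to 2386 and 1759, with 7 of 10 lower and 2 higher. The part of these shifts in the members' age changes was not tested.

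Upstream sequence was available in RefSeq's promoter table (build GRCm38.p6) for 66 of the 81 members, and the 250 bases before each start were searched on both strands for words of factors known to act on respiratory chain genes. The NRF1 word (GCGCA, any base, then GCGC) was found in 11 of the 66 (16.7%), against 4.23% of 27025 genes, and the ETS word CCGGAAG in 12 (18.2%), against 7.83%. The YY1 word AAGATGGCG was found in 1 (1.52%), against 0.710%, and the SP1 word GGGCGG in 25 (37.9%), against 35.4%. Of the 25 members that rose under all 3 scalings, 22 had sequence, and 2 held the NRF1 word and 5 the ETS word. Of the 10 that fell, 9 had sequence, and 2 held the NRF1 word and 3 the ETS word. A match is a description of letters and not a binding site. The windows of 2 members that rose, Atp5g2 and Uqcr11, and of 2 that fell, Ndufa5 and Atp5j, show that either word occurs in both directions of change. Each ends at the base before the start, is read 5′ to 3′ on the minus strand, and has the words in capitals: the NRF1 word in Atp5g2 (chr15:102671048-102671167) and Ndufa5 (chr6:24527691-24527810), the ETS word in Uqcr11 (chr10:80406822-80406941), and the YY1 and then the ETS word in Atp5j (chr16:84834977-84835096).
Atp5g2: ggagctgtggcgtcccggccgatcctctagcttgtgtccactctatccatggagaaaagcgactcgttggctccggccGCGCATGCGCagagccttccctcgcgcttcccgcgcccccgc
Uqcr11: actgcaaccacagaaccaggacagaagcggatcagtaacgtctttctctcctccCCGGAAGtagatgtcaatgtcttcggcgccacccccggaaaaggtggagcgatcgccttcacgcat
Ndufa5: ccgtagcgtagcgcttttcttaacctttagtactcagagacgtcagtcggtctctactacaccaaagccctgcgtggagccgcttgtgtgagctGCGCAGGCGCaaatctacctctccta
Atp5j: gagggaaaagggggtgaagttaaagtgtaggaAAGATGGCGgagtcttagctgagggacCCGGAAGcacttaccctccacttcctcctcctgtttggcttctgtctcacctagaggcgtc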

How the data were processed

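Total RNA of 6 forebrain samples was hybridised to 1-colour arrays, 1 array for each genotype and age, with groups taken from the labels. Each deposited value is a probe set's intensity, unlogged, computed by the authors with MAS5 per the submitters' processing notes. Its version, scaling target and detection calls: not given in the sources used here. MAS5 corrects background and summarises probes within each array, and this could not be redone from the table. Of 45101 probe sets, 34958 name 1 gene in the platform annotation, and the probe set with the highest mean deposited intensity stood for each of 18194 genes.

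Arrays were quantile-normalized, 6.50 was added and log2 taken, so changes of dim genes are understated. The 11091 genes with a mean log2 value past the probe sets' median entered a limma 3.58.1 model (R 4.3.3, lmFit and trended eBayes) of age and genotype, which leaves 2 residual degrees of freedom before moderation and 9.40 after. p-values were adjusted over all tested genes by Benjamini-Hochberg, with a threshold of 0.05. The fit was tested on simulated data. Scaling, pseudocount, filter, probe set, variance model, model terms and single arrays were varied. The small number of arrays limits the precision.

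Named are the members called across genotypes or from E9.5 to E12.5 (up to 15 each way by size), those past 2-fold at 1 age, the isoform families, and the brightest and most changed of each complex; further members were named after their values were seen. The members and lists were chosen with earlier results of these data known.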

Additional observations from a re-analysis of the deposited data

Results flagged for a closer look

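Ndufa4l2, the member that passed 2-fold between genotypes, had a knockout minus wild-type difference of, in order of age, -1.93, -1.26 and 0.66 on the log2 scale. A change of sign alone does not set it apart, since of the 75 tested members 8 were higher and 7 lower in the knockout at all 3 ages and the others were not of 1 sign. With 1 array a group the change of direction was not tested, and no array could be compared with others of its group.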

How the results depend on the processing

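For 10 summary results, 82 values under alternatives were alike, 5 were lower, 2 higher and 3 moved. A count was alike if within 1.5 times, whatever its split between rises and falls. The median member difference between genotypes at 1 age, relative to all tested genes, had another rule. It was alike if it shifted by less than the standard deviation of the medians of the 3 ages. Rises and falls from E9.5 to E10.5 went from 29 and 12 to 7 and 41 as deposited, and from E9.5 to E12.5 from 33 and 18 to 25 and 32 by trimmed mean. Of the values for named genes 522 were alike, 22 no longer passed, 11 newly passed and 13 turned. For age changes, alike meant the same direction and side of the threshold. For the genotype differences of Ndufa4l2 it meant the same direction and a shift under the standard deviation of its differences at the 3 ages, whatever the 2-fold threshold. In the genotype comparison the number of members called was 0 under each alternative, with 0 to 0 on leaving out single arrays. From E9.5 to E12.5 it was 42 to 52 without single arrays. From E9.5 to E10.5 it was 27 to 36 without single arrays and 14 without a variance trend. From E10.5 to E12.5 it was 11 to 29 without single arrays, 71 as deposited, 40 by trimmed mean and 10 without a variance trend. The number of members past 2-fold between genotypes went from 1 to 0 with a pseudocount of 32 at E9.5 and E10.5, and with values as deposited at E10.5. From E9.5 to E12.5 these differences turned: with the mean of all probe sets, Uqcrc2 (0.09), Ndufb11 (0.28), Ndufa12 (0.15) and Cox6a1 (0.30); by trimmed mean, Atp5g3 (-0.32), Cox4i1 (-0.08), Cox6b1 (-0.26), Cox7a2l (-0.12) and Cox6b2 (0.30); as deposited, Cox6b2 (0.70) and Cox8c (0.34); and Cox6b2 without the knockout array at E9.5 (0.08) or the wild-type array at E12.5 (0.10), within a range of -0.21 to 0.10 without single arrays. The cause was not tested. The labels give no replicate numbers and each group is 1 array. Wild type and knockout could thus be paired only by age, which stands as a block in the genotype fit.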
